A study of Mus musculus with 2 samples.

Results

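Cathepsins, the proteases of the lysosome, and cystatins, their protein inhibitors, were followed across the cell types of the infarcted mouse brain. The group was set by name: the 8 cathepsin genes Ctsa, Ctsb, Ctsc, Ctsd, Ctsh, Ctsl, Ctss and Ctsz and the 2 cystatin genes Cst3 and Cstb, which make 10 of the 31253 features counted. All 10 were present in both libraries. The cells came from infarcted tissue dissected 3 days after transient occlusion of the middle cerebral artery (tMCAO), a model of ischaemic stroke, and were released with collagenase and captured on the BD Rhapsody system. The control library was made from flox animals (named WT elsewhere in the design), and the other library, here cKO, from animals whose Hilpda gene was deleted conditionally. The labels give neither the Cre driver, the deleted exons nor the number, age or strain of the animals.

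Cathepsins are made as inactive precursors, carried to the lysosome largely by mannose 6-phosphate receptors, and matured there by cleavage. Ctsd is an aspartic protease, Ctsa a serine carboxypeptidase that also shields lysosomal beta-galactosidase and neuraminidase, and the others are cysteine proteases of the papain family. Cystatins block cysteine cathepsins that reach the wrong place, with cystatin C (Cst3) secreted from the cell and cystatin B (Cstb) held in the cytosol.

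Many lysosomal genes carry an E-box with the letters CACGTG near their start, the sequence bound by the lysosomal transcription factor Tfeb and its relatives. RefSeq promoter windows on GRCm38.p6, running from 250 bases before to 50 bases after a start, were on hand for 7 of the 10 genes (Ctsa, Ctsc, Ctsd, Ctsl, Ctss, Ctsz and Cst3), and both strands were searched. The letters occurred in 3 of these 7 (Ctsa, Ctsd and Ctsl), against 8.09% of all genes with a window. The longer TCACGTGA, of which CACGTG is the core, occurred in Ctsa and Ctsd and in 1.12% of all genes. A match describes the sequence and shows no binding. The matches upstream of a RefSeq start are shown because Ctsd and Ctsl are among the genes that differed most between states or libraries below. Ctsa, which also has the letters, was called in neither, and the part of the E-box in those differences was not tested. The E-box is in capitals, and each sequence is read 5′ to 3′ on the gene's strand.
Ctsa, chr2:164833749-164833772, plus strand: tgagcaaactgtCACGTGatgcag
Ctsd, chr7:142388055-142388077, minus strand: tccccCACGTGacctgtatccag
Ctsd, chr7:142387908-142387937, minus strand: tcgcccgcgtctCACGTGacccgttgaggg
Ctsl, chr13:64370739-64370768, minus strand: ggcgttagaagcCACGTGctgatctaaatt
In GENCODE vM21 the first Ctsd stretch lay upstream of the gene, while the other 3 overlapped an annotated untranslated region of the same gene.

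The flox library held 67864602 unique molecular identifiers (UMIs, each a single counted RNA molecule) in 8593 barcodes and the cKO library 70665440 in 7382. After filtering, 8065 flox cells (median 6997 UMIs) and 6984 cKO cells (median 8741 UMIs) were kept, and 56 barcode sequences occurred in both libraries. Marker genes, none of them a cathepsin or cystatin, placed 11070 of the 15049 kept cells in a class, and 27.5% of flox and 25.2% of cKO cells were left without one. Levels are given for 14 classes (20 or more cells per library), of which 10 (50 or more per library) were compared between libraries. Class names stand for cells that resemble that type by markers. In each of the 14 classes 3 or more of the 10 genes most enriched were markers of that class. The cells were placed by these same markers, so this is no independent check of the names. A level is the summed count of a gene for every 1000000 UMIs of its class and library (CPM). Each group had 1 library, so nothing could be checked in a replicate, no test was made, library preparation and group cannot be told apart, and every interval below is a 95% interval for counting error only.

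Hilpda, the gene targeted in the cKO, encodes a lipid droplet protein. Microglia had 106 CPM of it in the flox and 221 CPM in the cKO library, and monocytes or macrophages 481 and 262 CPM. In dendritic cells it was 130 and 243 CPM, and in neutrophils 187 and 27.6 CPM from 39 and 10 UMIs. The library labelled cKO thus held less Hilpda RNA in some classes and more in others. The counted part of the transcript may lie outside the deleted part, so these levels do not check the labels.

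The group was a large part of the RNA of microglia and macrophages. Its 10 genes made up 4.64% of all UMIs in flox and 4.72% in cKO microglia, 4.74% and 4.64% in monocytes or macrophages, and 3.43% in border-associated macrophages of both libraries. The share was 1.67% and 2.03% in dendritic cells and 0.846% and 0.909% in neutrophils. The share was 0.393% and 0.410% in endothelial cells and lowest in oligodendrocyte precursors, at 0.220% and 0.195%. Microglia and both macrophage classes thus carried more than any other class in both libraries. Cells left without a class carried 4.84% and 4.66%, close to microglia and macrophages.

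**Figure D1:**
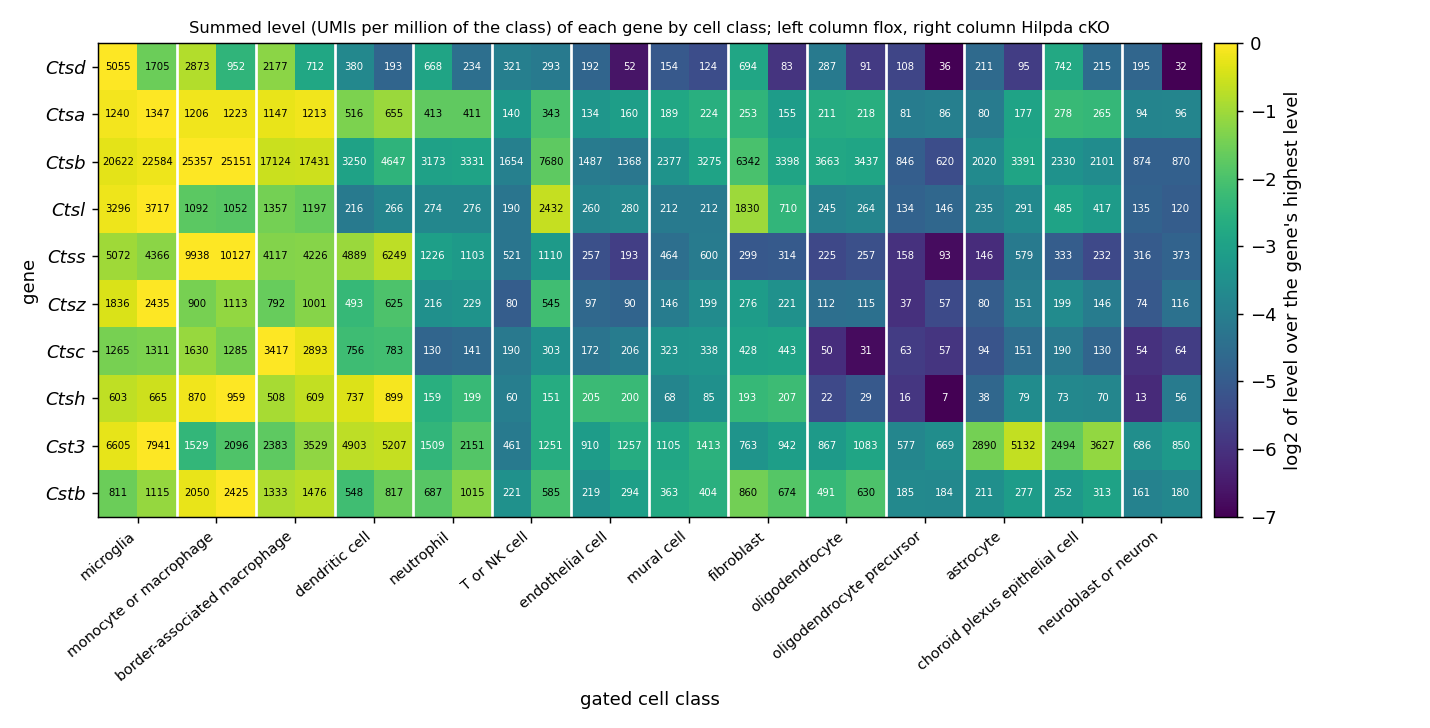
Level of each gene (rows) in 14 gated cell classes (columns), with flox on the left and Hilpda cKO on the right of each pair. Printed numbers are levels in CPM, and colour is the log2 of that level over the gene's own highest level, so colours compare classes within a gene. Most rows are brightest in the microglia and macrophage columns, Cst3 is also bright in dendritic cells, astrocytes and choroid plexus, and the Ctsd row is darker in the cKO column of each pair.

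Ctsd, the aspartic cathepsin, which digests proteins and activates other lysosomal enzymes, was highest in microglia. It stood at 5055 CPM there in flox and 1705 in cKO, followed by monocytes or macrophages at 2873 and 952 and border-associated macrophages at 2177 and 712. Choroid plexus epithelial cells had 742 and 215 CPM and neutrophils 668 and 234. In flox the lowest levels were in mural cells (154 CPM) and oligodendrocyte precursors (108 CPM), whose intervals overlapped. Microglia, macrophages and border-associated macrophages kept this order in both libraries, and the lower level in cKO is taken up below. Ctsa, the serine carboxypeptidase, was nearly level across the phagocytes, with 1240 and 1347 CPM in microglia, 1206 and 1223 in monocytes or macrophages and 1147 and 1213 in border-associated macrophages. The flox intervals of neighbours among these 3 classes overlapped. Dendritic cells had 516 and 655 CPM of Ctsa, and the lowest class had 79.9 in flox (astrocytes) and 85.7 in cKO (oligodendrocyte precursors).

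Ctsb, a cysteine protease that acts both as an endopeptidase and as a carboxypeptidase, made up 2.54% and 2.52% of all UMIs of monocytes or macrophages. Macrophages had 25357 and 25151 CPM of it, microglia 20622 and 22584 and border-associated macrophages 17124 and 17431. Other classes were lower. Next were fibroblasts in flox, where Ctsb was 0.634% of UMIs, and T or NK cells in cKO, at 0.768%. Oligodendrocytes had 3663 and 3437 CPM, dendritic cells 3250 and 4647 and oligodendrocyte precursors 846 and 620. Ctsl, an endopeptidase, was highest in microglia at 3296 and 3717 CPM, against 1092 and 1052 in monocytes or macrophages. Fibroblasts had 1830 CPM of Ctsl in flox but 710 in cKO, from 25 and 79 cells. T or NK cells had 190 CPM in flox and 2432 in cKO, from 56 and 37 cells. Those T or NK cells also had 1654 and 7680 CPM of Ctsb, so values of these small classes differed widely between libraries. Of the phagocyte genes used below, C1qc was 331 and 1746 CPM and C1qb 361 and 969 CPM in the T or NK cells. Tyrobp (832 and 898) and Fcer1g (1574 and 1514) were nearly level there, Laptm5 was lower in cKO (1333 and 888), and Aif1 had 2 and 3 UMIs. The part of phagocyte RNA in these T or NK cell values was not tested.

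Ctss, which cuts the invariant chain Cd74 during antigen presentation, was a gene of leukocytes. Monocytes or macrophages had 9938 CPM in flox and 10127 in cKO, dendritic cells 4889 and 6249, microglia 5072 and 4366 and border-associated macrophages 4117 and 4226. Neutrophils had 1226 and 1103 CPM. Endothelial cells, at 257 and 193 CPM, and oligodendrocytes, at 225 and 257 CPM, lay far below macrophages. Microglia and dendritic cells changed places between the libraries in this order. Ctsz, a carboxypeptidase, was highest in microglia (1836 and 2435 CPM), then monocytes or macrophages (900 and 1113) and border-associated macrophages (792 and 1001). Ctsc, which activates serine proteases of leukocyte granules, was highest in border-associated macrophages at 3417 and 2893 CPM. Macrophages had 1630 and 1285 CPM of Ctsc and microglia 1265 and 1311, with overlapping intervals in cKO. Neutrophils, which store granule proteases, had only 130 and 141 CPM of Ctsc. Ctsh, an aminopeptidase, was at 870 and 959 CPM in monocytes or macrophages, 737 and 899 in dendritic cells and 603 and 665 in microglia. In cKO the macrophage and dendritic cell intervals overlapped.

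The inhibitors were spread differently. Cst3 was highest in microglia at 6605 CPM in flox and 7941 in cKO, followed by dendritic cells at 4903 and 5207, astrocytes at 2890 and 5132 and choroid plexus epithelial cells at 2494 and 3627. Monocytes or macrophages, at 1529 and 2096 CPM, lay below all of these, and their interval overlapped that of neutrophils in both libraries. By these levels Cst3 was the single gene of the group with astrocytes and choroid plexus among its 4 highest classes in both libraries. The choroid plexus interval overlapped that of border-associated macrophages (2383 and 3529 CPM) in both libraries, so its place among the 4 is not settled. The astrocyte levels rest on 40 and 88 cells. Cstb had the opposite order among microglia and macrophages. Its level was 2050 and 2425 CPM in monocytes or macrophages, 1333 and 1476 in border-associated macrophages and 811 and 1115 in microglia, and neutrophils had 687 and 1015 CPM.

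Set against the 6 cysteine cathepsins, cystatin UMIs were scarcest in macrophages. Monocytes or macrophages had 0.0899 UMIs of Cst3 and Cstb per cysteine cathepsin UMI in flox and 0.114 in cKO, border-associated macrophages 0.136 and 0.183, and microglia 0.227 and 0.258. Dendritic cells had 0.527 and 0.447. Endothelial cells had 0.456 and 0.663, choroid plexus epithelial cells 0.761 and 1.27 and astrocytes 1.19 and 1.17. Astrocytes in both libraries and choroid plexus in cKO had more inhibitor than protease UMIs. Most of the cystatin UMIs in microglia were Cst3 (0.202 and 0.226 per cathepsin UMI, against 0.0248 and 0.0318 for Cstb), while in macrophages Cstb gave the larger part (0.0515 and 0.0611, against 0.0384 and 0.0528). These quotients set UMIs of different transcripts side by side, so they compare classes and not molar amounts of protein.

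**Figure D2:**
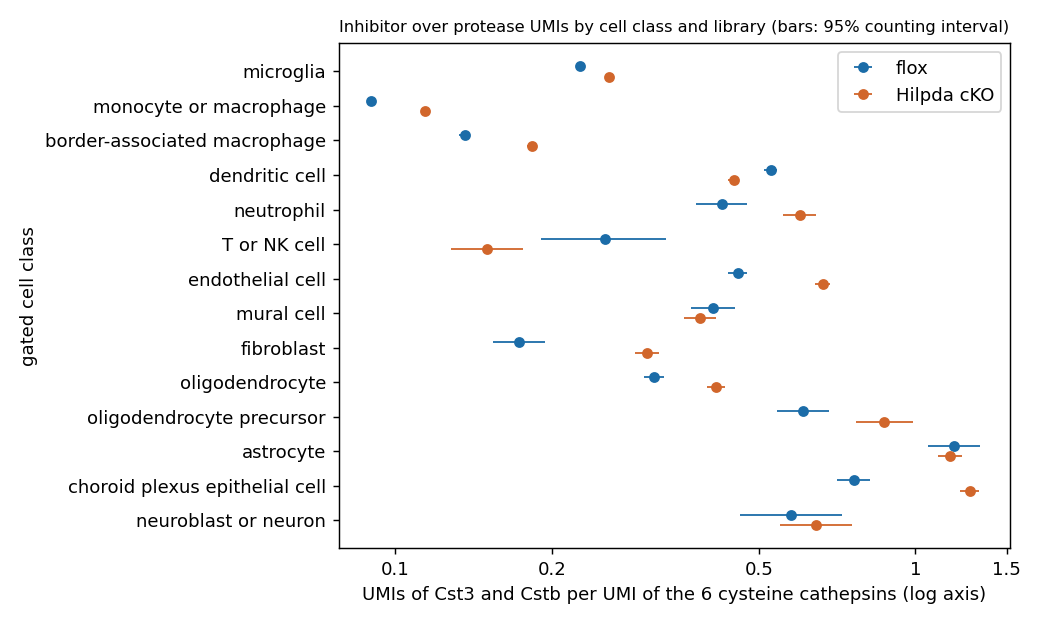
UMIs of Cst3 and Cstb together per UMI of the 6 cysteine cathepsins, on a log axis, for 14 cell classes in flox (blue) and Hilpda cKO (orange). Points are the quotient and bars the 95% counting interval. Macrophages lie farthest left (0.0899 and 0.114) and astrocytes (1.19 and 1.17) and cKO choroid plexus (1.27) farthest right.

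As a scale for RNA of phagocytes in other cells, 6 phagocyte genes outside the group were used (Tyrobp, Fcer1g, C1qb, C1qc, Laptm5 and Aif1). In endothelial cells their levels were 3.24% to 5.10% of those in the pooled phagocytes in flox, with a median of 4.14%, and in cKO the median was 2.73%. In oligodendrocytes they were 2.29% to 4.33% and 2.22% to 3.80%. None of the 6 was at 0 in these classes. Cst3 in endothelial cells was 19.2% and 23.4% of its phagocyte level, and in astrocytes 60.9% and 95.6%, far above that range. Above the range in both libraries were 8 of the 10 genes in endothelial cells, 9 in choroid plexus epithelial cells, 8 in fibroblasts, 7 in oligodendrocytes, 7 in astrocytes, 5 in mural cells, 4 in oligodendrocyte precursors and 2 in neuroblasts or neurons (Cst3 and Cstb). The share of all genes above that range was not computed, so these counts are not read as a trait of the group. Ctss was in no such list, and its level in endothelial cells was 3.92% and 2.92% of that in phagocytes. Levels at or below the range, such as that of Ctss in endothelial cells, are not read as levels of the class itself. Their source was not tested. In dendritic cells, neutrophils and T or NK cells some of the 6 genes are their own, so the range was not used there.

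Microglia and infiltrating macrophages held nearly the same share of cathepsin and cystatin UMIs but divided it differently. Called genes are those at least 2-fold apart in the same direction in both libraries. Higher in microglia were 3 of the 10 genes, Cst3 (log2 ratio 2.11 in flox and 1.92 in cKO), Ctsl (1.59 and 1.82) and Ctsz (1.03 and 1.13), against 13.3% of the 11107 genes compared. Lower was 1, Cstb (−1.34 and −1.12), against 6.21% of all genes. The Cstb call was lost with Leiden clusters in place of the gate (−1.19 and −0.99). The levels behind Cst3 were 6605 against 1529 CPM in flox and 7941 against 2096 in cKO. Ctss missed the 2-fold limit in flox only (−0.97 and −1.21), and Ctsd was higher in microglia by 0.82 and 0.84. Ctsa (0.04 and 0.14) and Ctsb (−0.30 and −0.16) differed little. The median over the 10 genes was −0.13 and 0.08, beside 0.13 and 0.09 over all genes. Microglia had median depths of 8637 and 13414.5 UMIs and macrophages 6898 and 8646, whose part in the result was not tested.

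Border-associated macrophages, which line vessels and meninges, differed from infiltrating macrophages in 2 of the 10 genes. Ctsc was higher (1.07 in flox and 1.17 in cKO), where 7.15% of 9739 genes were. Ctss was lower (−1.27 and −1.26), where 4.10% of genes were. The Ctsc levels were 3417 against 1630 CPM and 2893 against 1285, so the class with less Ctss had more Ctsc. The Ctsc call was lost with TMM scaling (0.88 and 0.98) and with every cell weighing the same (0.94 and 1.10). Dendritic cells set against macrophages had higher Cst3 (1.68 and 1.31), against 8.31% of 9626 genes. They were lower in 4 genes, Ctsb (−2.96 and −2.44), Ctsd (−2.92 and −2.30), Ctsl (−2.33 and −1.98) and Cstb (−1.90 and −1.57), against 8.81% of genes. Ctsh (−0.24 and −0.09) stayed near the macrophage level in dendritic cells. All these comparisons share the macrophage sums of each library.

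**Figure D3:**
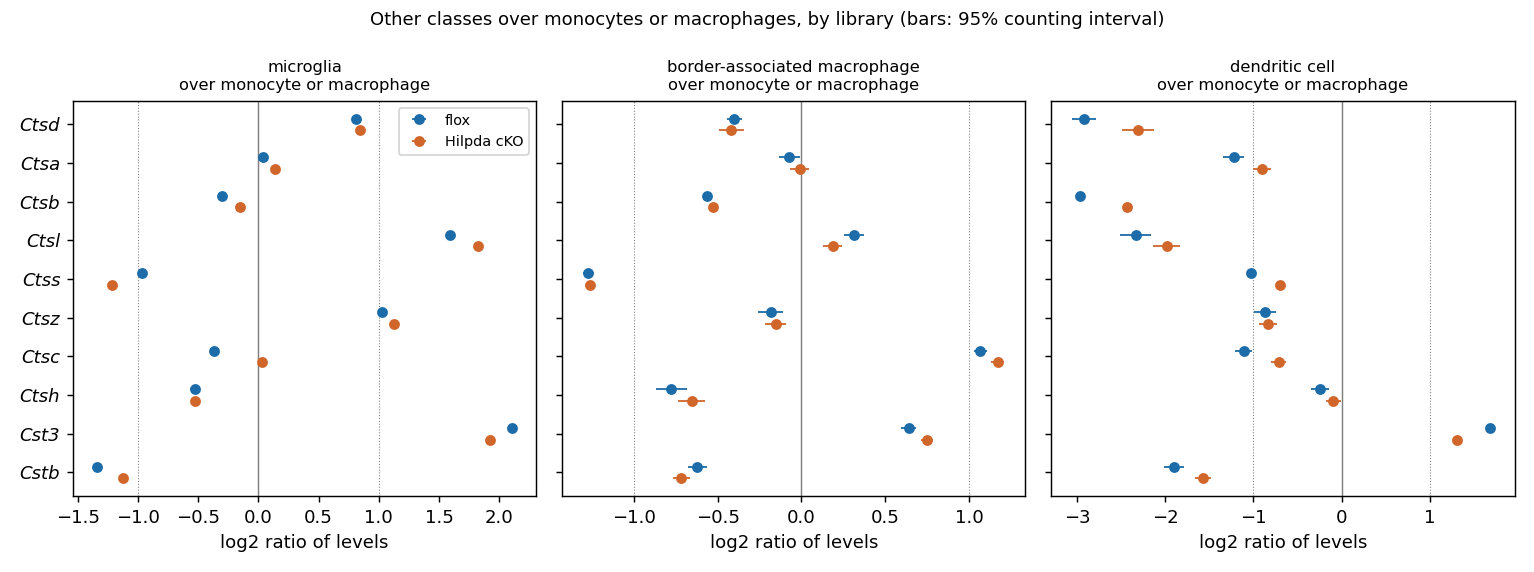
Log2 ratio of the level of each gene in microglia, border-associated macrophages and dendritic cells over monocytes or macrophages, in flox (blue) and Hilpda cKO (orange). Bars are 95% counting intervals and dotted lines mark a 2-fold difference. In the first panel Cst3 (2.11 and 1.92) lies farthest right and Cstb (−1.34 and −1.12) farthest left in flox, and in the last panel Cst3 is the only gene to the right of 0.

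Cells of 1 class varied widely in some of these genes. Among flox microglia with at least 1000 UMIs the level of Cst3 in single cells ran from 2542 CPM at the 10th percentile to 5518 at the median and 23494 at the 90th. Ctsb ran from 3901 over 14602 to 32529 CPM in the same cells. In flox macrophages Ctss was narrower, from 5481 over 9509 to 13915 CPM. Ctsd was found in 96.7% of flox and 89.6% of cKO macrophages, with medians of 2368 and 653 CPM. A split of microglia and macrophages into states by other genes, set in the design, is given next.

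Microglia were divided by genes outside the group into an activated state (Spp1, Lpl, Gpnmb, Mmp12, Lgals3 and Fabp5) and a resting state (P2ry12, Tmem119, Siglech, Sall1 and Gpr34). Activated microglia numbered 845 in flox and 840 in cKO, and resting microglia 1119 and 473. Ctsb was 28069 CPM in activated and 9657 in resting flox microglia, and 26989 and 9986 in cKO, a log2 ratio of 1.54 and 1.43. Cst3 went the other way, at 3768 against 12026 CPM in flox and 6112 against 15528 in cKO (−1.67 and −1.35). The protease was thus higher and the secreted inhibitor lower in activated microglia of both libraries. Cstb was 1115 against 394 CPM in flox and 1351 against 454 in cKO (1.57 in cKO), and Ctsl 4320 against 2079 (1.06 and 1.12). In total 3 genes were called higher in the activated state (Ctsb, Ctsl and Cstb), against 4.68% of 10330 genes, and 1 lower (Cst3), against 6.60%. Ctsd lay just inside 2-fold (0.93 and 0.86), as did Ctss in flox (−0.98 and −1.06), while Ctsc barely differed (−0.08 and −0.13). The median over the group was 0.62 and 0.52, beside 0.02 in both libraries over all genes. Activated cells were deeper, with median UMIs of 13908 and 18054 against 5388 and 7116, and the part of depth was not tested.

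Macrophages were divided in the same way into a lipid-laden state (Gpnmb, Fabp4, Fabp5, Spp1, Trem2 and Lpl) of 955 and 1030 cells and newly entered monocytes (Ly6c2, Plac8, Ccr2, Chil3 and Ms4a4c) of 311 and 287 cells. Ctsd was 3449 CPM in lipid-laden macrophages and 756 in monocytes of flox, and 1127 and 225 in cKO (2.19 and 2.33). Ctsb was 29124 against 9265 CPM in flox and 28424 against 9241 in cKO (1.65 and 1.62). Ctsl was 1264 against 466 CPM and 1179 against 486 (1.44 and 1.28). These 3 were called higher, against 4.69% of 9140 genes, and none was called lower, where 5.18% of genes were. Ctsc was the gene with the lowest ratio (−1.03 and −0.98), at 2668 CPM in flox monocytes against 1308 in lipid-laden cells. Cst3 differed little between the macrophage states (−0.34 and −0.20), unlike between the microglial ones. Ctsb and Ctsl were thus the genes called higher in both lipid-handling states, whose marker lists share Gpnmb, Fabp5, Spp1 and Lpl. Median depths were 8536 and 10755 UMIs in lipid-laden cells and 4463 and 5318 in monocytes.

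**Figure D4:**
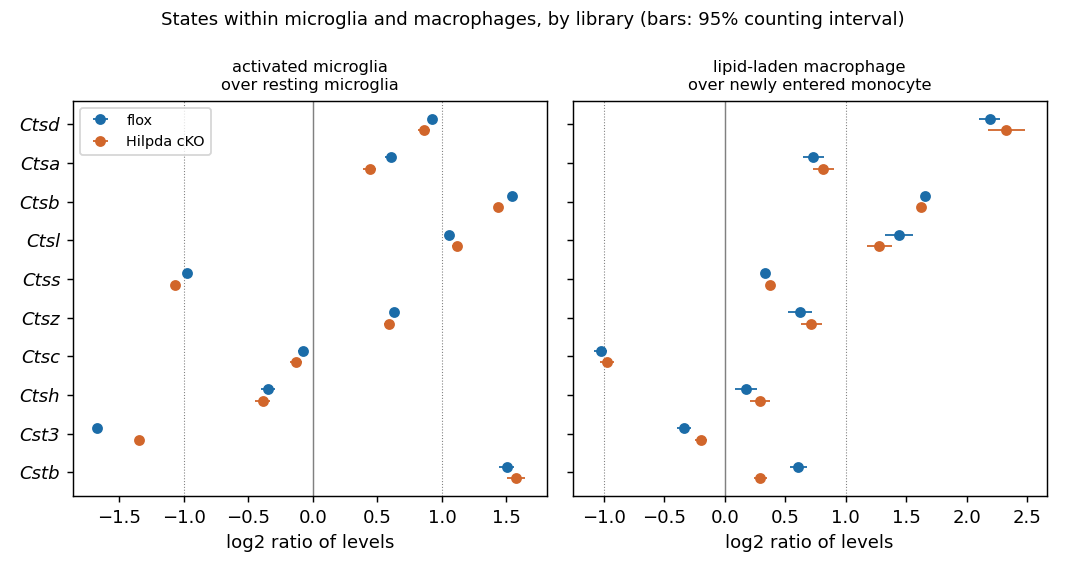
Log2 ratio of the level of each gene in activated over resting microglia and in lipid-laden macrophages over newly entered monocytes, in flox (blue) and Hilpda cKO (orange). Bars are 95% counting intervals and dotted lines mark a 2-fold difference. Ctsb (1.54 and 1.43, then 1.65 and 1.62) and Ctsl lie past the right line in both panels, Cst3 (−1.67 and −1.35) past the left line in the first and Ctsd (2.19 and 2.33) farthest right in the second.

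Between the libraries, Ctsd was the gene of the group that differed most. In microglia it was 5055 CPM in flox (116320 UMIs) and 1705 in cKO (35214 UMIs), a log2 ratio of cKO over flox of −1.57 (−1.59 to −1.55). It was lower by about the same factor in monocytes or macrophages (−1.59), border-associated macrophages (−1.61), neutrophils (−1.51), oligodendrocytes (−1.66), choroid plexus epithelial cells (−1.79) and endothelial cells (−1.87). Neuroblasts or neurons had −2.60 (−3.94 to −1.44) from 29 and 8 UMIs. Dendritic cells lay at −0.98 (−1.20 to −0.76), and mural cells, with 154 and 124 CPM, at −0.31 with an interval that included 0 (−0.82 to 0.20). With Leiden clusters the mural ratio was 0.04. Ctsd was thus at least 2-fold lower in 8 of 10 classes. The flox level of Ctsd was 4.57% of the phagocyte level in endothelial cells, 3.67% in mural cells and 4.65% in neuroblasts or neurons. These values lay within the range of the 6 phagocyte genes. By the rule above they are not read as levels of those classes. The part of phagocyte RNA in those ratios was not tested. Among the classes where that range was used, Ctsd lay above it in both libraries in choroid plexus epithelial cells and oligodendrocytes. Within states the ratios were close to this, with −1.69 in activated and −1.62 in resting microglia, −1.61 in lipid-laden macrophages and −1.75 in newly entered monocytes, and in cells left without a class (−1.59).

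Base composition at the 3′ end is given here beside this difference. The last 500 bases of the Ctsd transcript held 56.4% G or C, the highest value of the 10 genes. Of the 532 genes within 1 point of that value in microglia, 27.8% were at least 2-fold lower in cKO. The median ratio of these genes was −0.35, and 15.6% of them were at or below the ratio of Ctsd. The genes were also divided into 10 bins by this composition, and with the median ratio of its bin subtracted, Ctsd stood at −1.06 in microglia and −1.19 in macrophages. Ctsz, the next highest at 54.4%, was higher in cKO in both classes (0.41 and 0.31). The part of base composition in the Ctsd difference was not tested beyond these values. Ctsd also shares 808 exon bases with Gm49369 on the same strand, a gene model with no UMIs in the kept cells.

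No other gene of the group was at least 2-fold apart in microglia, where Ctsd was the 1 of 10 genes called lower and none was called higher, against 5.83% and 0.58% of the 11557 genes measured. In macrophages the same held, against 5.30% lower and 0.91% higher of 10438 genes. Ctsd was also the 1 gene called lower, with none called higher, in 6 more classes. All genes called lower and higher there were 5.01% and 0.986% in border-associated macrophages, 3.76% and 3.04% in neutrophils and 6.98% and 0.902% in endothelial cells. They were 4.86% and 1.51% in oligodendrocytes, 4.38% and 3.56% in choroid plexus epithelial cells and 3.56% and 4.23% in neuroblasts or neurons. In dendritic cells (5.06% and 1.12% of all genes) and mural cells (4.67% and 2.6%) no gene of the group was called. A share of 1 in 10 genes is near these backgrounds. Ctsd had the lowest ratio of the group in 10 of 10 classes. Outside Ctsd the ratios with at least 30 UMIs lay between −0.71 and 0.65.

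Both cystatins were somewhat higher in the cKO library. Cst3 lay above 0 in 10 of 10 classes and its interval above 0 in 9, with log2 ratios from 0.09 in dendritic cells to 0.57 in border-associated macrophages and a median of 0.41. Cstb lay above 0 in 10 of 10 classes, but in 7 when cells above 10% mitochondrial UMIs were left out, and its interval in 8, with ratios from 0.15 in border-associated macrophages to 0.58 in dendritic cells, with a median of 0.33. These are ratios well under 2-fold, and the intervals do not cover variation between animals or libraries. All 10 classes share the same 2 libraries, and the share of all genes with intervals above 0 was not computed. Of genes within 1 point in 3′ composition, 58.1% (dendritic cells) to 91.1% (border-associated macrophages) were at or below Cst3. For Cstb the range was 52.8% (mural cells) to 92.4% (microglia). Ctsa, Ctsh and Ctsz were each above 0 in 8 of 10 classes with the interval above 0 in 4, and the interval lay below 0 in 1 class for Ctsz and in 0 for the other two. Ctsb was above 0 in 5 classes and below in 5, and Ctsc, Ctsl and Ctss were each above in 6 and below in 4. In neuroblasts or neurons Ctsc and Ctsh had fewer than 30 UMIs and were not called, so the 2 and 14 UMIs of Ctsh there, among its 8 classes above 0, are not read as a difference.

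Some whole-class ratios of microglia differed from the ratios within their states. Activated cells were 845 of 2337 microglia in flox and 840 of 1534 in cKO, and resting cells 1119 and 473. Microglia in neither state also enter the whole-class ratios, and the part of the mix of states was not tested. Ctsb was 0.13 higher in cKO over the whole class but −0.06 within activated and 0.05 within resting microglia. Ctss was −0.22 over the class, −0.09 within activated cells and 0.00 within resting cells. Cst3 was 0.27 over the class but 0.70 (0.68 to 0.71) in activated and 0.37 (0.35 to 0.38) in resting microglia. In the macrophage states Cst3 was 0.49 and 0.35 and Cstb 0.20 and 0.52, in lipid-laden cells and monocytes respectively. Both cystatins were thus above 0 in each of the 4 states.

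**Figure D5:**
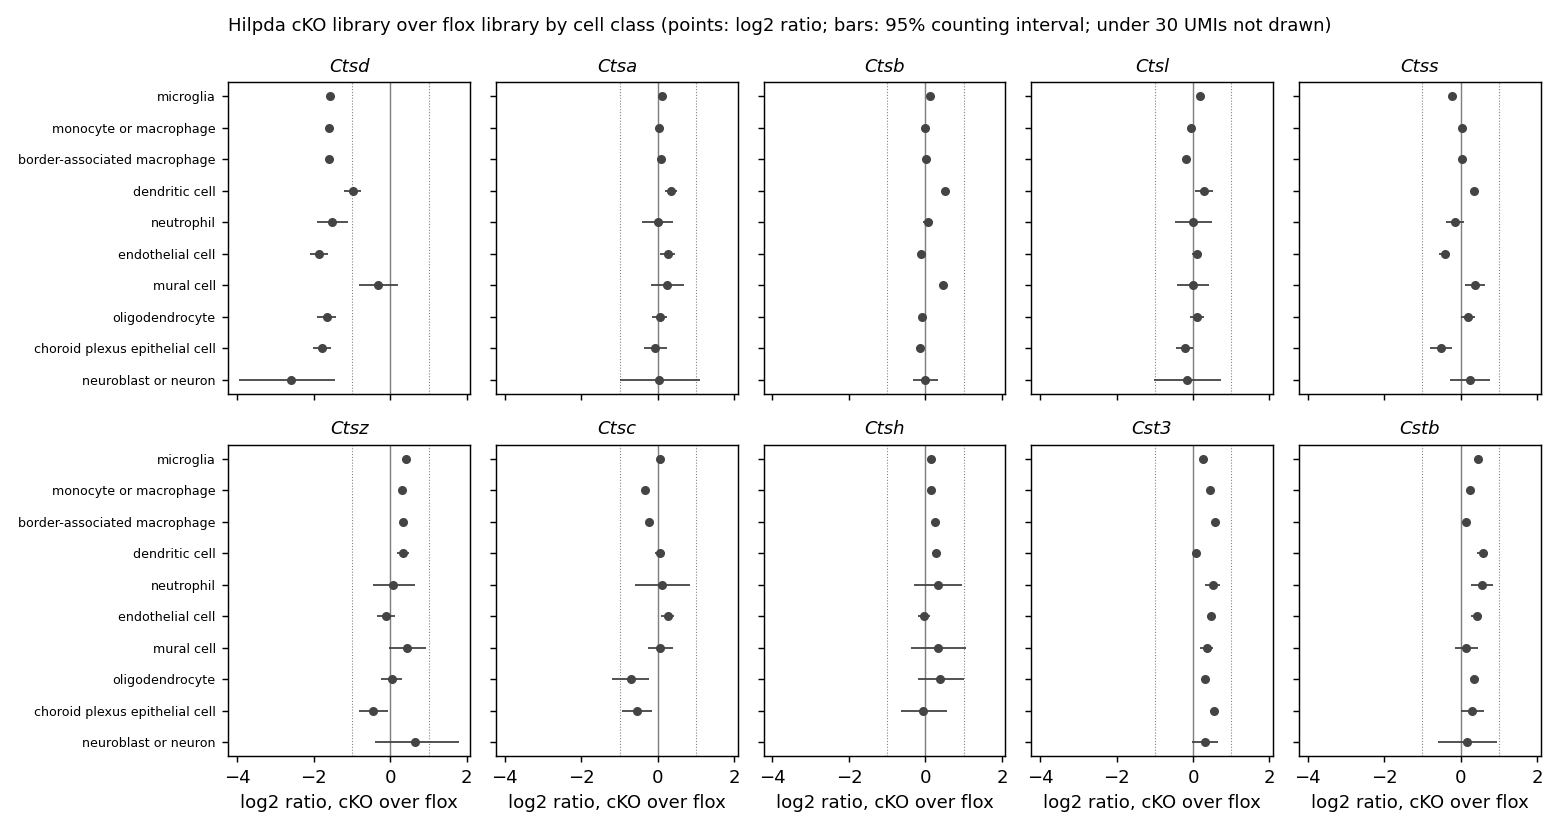
Log2 ratio of the Hilpda cKO library over the flox library for each gene in the 10 cell classes compared, with 95% counting intervals as bars and dotted lines at a 2-fold difference. Genes with under 30 UMIs in a class are not drawn. The Ctsd points lie left of the 2-fold line in 8 of 10 classes, and the Cst3 and Cstb points lie right of 0 in all 10.

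Other genes of the pathway were taken from lists. Among 5 other cathepsins with at least 100 UMIs, Ctsf was 78.0 CPM in flox and 52.5 in cKO microglia but 2.63 and 1.88 in macrophages, and Ctsk, known from osteoclasts, was 1.22 and 1.31 in microglia but 18.3 and 28.9 in macrophages. Among 2 other cystatins with at least 100 UMIs, Cst7 (cystatin F) was 181 and 176 CPM in microglia and 6.96 and 5.57 in macrophages. Cst7 did not differ between the microglial states by 2-fold (0.03 and 0.09), unlike Cst3. Neutrophils had 692 and 301 CPM of the stefin Stfa2l1 from 144 and 109 UMIs, a gene with close copies among which reads may be split. The serpin Serpina3n was at 1555 and 1976 CPM in oligodendrocytes and at most 2.15 CPM in microglia and macrophages.

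Among the 10 lysosomal peptidases and cathepsin partners, Psap, whose product is cut by Ctsd into saposins, was lower in microglia (3775 and 4583 CPM) than in macrophages (12533 and 16112). Cd74, the invariant chain, was also lower there (109 and 98.1 against 708 and 678 CPM), and the other 8 were under 2-fold apart, where 6.21% of all genes were called lower. Lgmn, the lysosomal asparagine endopeptidase that matures several cathepsins, was 2809 and 2811 CPM in microglia and 2326 and 2190 in macrophages. In lipid-laden macrophages 4 of the 10 were called higher than in monocytes (Tpp1, Dpp7, Glb1 and Psap) and 1 lower (Cd74), where 4.69% and 5.18% of all genes were. None of the 10 was called in activated over resting microglia. Of 9 genes of mannose 6-phosphate sorting, 3 were called higher in activated microglia (Igf2r, Gnptab and Gga2), 1 lower (Sort1) and 5 were under 2-fold apart, where 4.68% of all genes were called higher and 6.60% lower. Igf2r, which encodes a mannose 6-phosphate receptor, was at 155 against 12.1 CPM in flox and 158 against 10.2 in cKO (3.68 and 3.95). Sort1, which encodes the sorting receptor sortilin, was at 67.2 against 141 CPM and 60.0 against 135 (−1.07 and −1.16).

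Between libraries, Gga1 and Tfeb were called lower in cKO, and the other genes measured in these lists were under 2-fold apart in microglia and macrophages. Gga1 was 1 of 9 sorting genes and Tfeb 1 of 3 lysosomal transcription factors measured in each class. No gene of the other lists was called. Over all genes 5.83% were called lower in microglia and 5.30% in macrophages. Calls in lists this short are not read as a result about the pathway. Gga1, a sorting adaptor for the mannose 6-phosphate receptors, was 41.2 and 8.33 CPM in microglia (−2.31) and 43.0 and 9.80 CPM in macrophages (−2.13). Tfeb was 14.1 and 3.73 CPM in microglia (−1.92) and 18.2 and 4.43 in macrophages (−2.04). The 3′ end of Gga1 held 59.4% G or C and that of Tfeb 61.0%, above the 56.4% of Ctsd, and the part of base composition was not tested. Tfe3 (0.04 and 0.18) and Mitf (−0.11 and −0.16) differed little.

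Across the 28 sums of 14 classes and 2 libraries, the genes of the group followed each other to different degrees. These are descriptions over points that share libraries and depth. Pearson's r of log2(CPM + 1) was 0.95 for Ctsa and Ctsz and 0.92 for Ctsa and Ctsb. It was lowest between Cst3 and Cstb, at 0.42. Searched over 8693 genes, the gene most like each was Ctsz for Ctsa (0.95), Adgre1 for Ctsb (0.94), Dab2 for Ctsc (0.91), C1qa for Ctsd (0.95), Anxa4 for Ctsh (0.91), Spp1 for Ctsl (0.89), Ms4a6c for Ctss (0.97), C3ar1 for Ctsz (0.96), Naaa for Cst3 (0.78) and Ctsb for Cstb (0.91). Cst3 had the weakest best match of the 10.

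The genes lie on 7 chromosomes of GRCm38. Ctsd (ENSMUSG00000007891) is at chr7:142375911-142388038 on the minus strand and Ctsc at chr7:88278085-88310888 on the plus strand. Cst3 (chr2:148871722-148875692, minus), Ctsa (chr2:164832873-164841032, plus) and Ctsz (chr2:174427493-174439039, minus) share chromosome 2. Ctsb is at chr14:63122462-63145923 (plus), Ctsl at chr13:64359337-64370890 (minus) and Ctss at chr3:95526786-95556403 (plus). Ctsh is at chr9:90054152-90076089 (plus) and Cstb at chr10:78425669-78427622 (plus). Genes that overlap the group bear on its counts. Ctsa shares exon bases with Neurl2 and Pltp, Ctsb with Fdft1 and Ctsz with Nelfcd, all on the opposite strand, and Ctsl with the antisense Gm47123 and the pseudogene Gm49230. The sources used here do not say whether counting used the strand, so reads from these overlaps could be placed with either gene.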

How the data were processed

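The deposited files hold whole-number counts of UMIs per gene and cell, per the file headers, for 1 flox and 1 Hilpda cKO library of BD Rhapsody cells. Named in the submitters' processing notes were the build mm10 and the tools CASAVA 1.8, STARsolo and Seurat. Not given in the sources used here were the annotation, how the cells were called, the counter settings and the use of strand. From the deposited counts, cells with at least 500 UMIs, 200 genes and at most 25% mitochondrial UMIs were kept. Scrublet (expected share 6%) then removed 210 flox and 142 cKO cells as doublets. Each cell was placed in a class when its marker score reached 0.2, rested on at least 2 detected markers and exceeded the next class 1.5-fold. UMIs were summed per class and library and divided by the class total.

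Ratios were called at 2-fold for genes with at least 30 UMIs in the libraries compared. Intervals are exact and cover counting error only (Poisson for levels, conditional binomial for ratios, at 95%). No tests were made. Median depth per kept cell was 6997 and 8741 UMIs, which sets the precision of small classes. The calculation was tested on counts simulated from a profile pooled over both libraries, with known folds planted. The simulation held counting error only, so it does not cover variation between animals or libraries. All 10 genes of the group were described. From the pathway lists, genes with at least 100 UMIs were counted, and those past 2-fold or with the most UMIs in their list could be named. For likeness, the gene with the highest Pearson r of those with at least 1000 UMIs was taken. The members and lists were chosen with earlier results of these data known, and the gate thresholds were set after marker scores, not levels of the group, were seen. Alternatives were a stricter gate, Leiden clusters, doublets kept, at most 10% mitochondrial UMIs and at least 1000 UMIs. Others were TMM scaling from edgeR 4.0.16, equal weight per cell, other count minimums and subtraction of the median of the 3′ composition bin. Gene positions and overlaps came from GENCODE vM21 (31107 of 31253 identifiers matched), and promoters from RefSeq. Python 3.11.15, scanpy 1.11.5 and R 4.3.3 were used.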

Additional observations from a re-analysis of the deposited data

Results flagged for a closer look

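In 5 genes the log2 ratio of cKO over flox had opposite signs in different cell classes, with counting intervals on either side of 0. None of these differences between classes was tested, since each group had 1 library. Ctsb was −0.15 in choroid plexus epithelial cells and 0.52 in dendritic cells. Ctsc was −0.71 in oligodendrocytes, where its level was 50.3 and 30.8 CPM, and 0.26 in endothelial cells. In oligodendrocytes Ctsc was 3.34% of its phagocyte level in flox and 2.20% in cKO. Neither value was above the range of the 6 phagocyte genes, so Ctsc is not read as a level of that class. Ctsl was −0.18 in border-associated macrophages and 0.30 in dendritic cells. Ctss was −0.52 in choroid plexus epithelial cells and 0.37 in mural cells. In both classes its level lay within that range and is not read as a level of the class. Ctsz was −0.45 in choroid plexus epithelial cells and 0.41 in microglia.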

How the results depend on the processing

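No call of a single ratio reversed direction under any alternative. Of 98 ratios of cKO over flox, between 77 (equal weight per cell) and 95 (at least 1000 UMIs) kept their sign, and of 100 ratios between types or states, between 96 and 100, with 58 of 60 in Leiden clusters. The median of Ctsd over classes lay between −1.27 (median of its 3′ composition bin subtracted) and −1.60. Cst3 stayed above 0 in 10 of 10 classes under all 8 alternatives. Counts of called genes changed as follows. Lower in cKO dendritic cells were 0 genes, but 1 with the stricter gate, with Leiden clusters or with at least 1000 UMIs. In mural cells 0 were lower, but 1 with equal weight per cell, and 0 were higher, but 2 with the stricter gate and 3 with Leiden clusters. In choroid plexus cells 1 was lower, but 3 with at most 10% mitochondrial UMIs. In neuroblasts or neurons 0 were higher, but 3 with doublets kept and 1 with equal weight per cell. Lower in microglia than macrophages was 1, but 0 with Leiden clusters and 2 with TMM scaling. Higher in border-associated macrophages was 1, but 0 with TMM scaling and 0 with equal weight per cell. Lower in activated microglia was 1, but 2 with the stricter gate, and lower in lipid-laden macrophages 0, but 1 with the stricter gate. The cause of these changes was not tested. With no minimum beyond 1 UMI the share of all genes at least 2-fold lower in cKO microglia was 14.8% in place of 5.83%. No paired analysis was possible because each group has 1 library. Neutrophils, at a median of 1060 and 1286 UMIs per cell, were the shallowest class compared.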
